A study of Mus musculus with 12 samples.

Results

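Excitatory projection neurons of the cerebral cortex release glutamate and sit in layers that differ in their targets. The genes described here are 9 markers of these neurons, chosen by name and matched through Ensembl identifiers, out of 55401 genes in the table. The choice was made with earlier results of these data known. All 9 passed the expression filter among 18289 genes tested. They were Slc17a7 and Nptx1 for excitatory neurons at large, Cux1, Cux2 and Rorb for the upper layers, and Fezf2, Bcl11b, Tbr1 and Foxp2 for the deep layers.

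Poly(A) RNA of prefrontal cortex was sequenced from C57BL/6J males. They were 14 weeks old and had received bilateral injections of adeno-associated virus into the dorsomedial part of that cortex 4 weeks earlier. The 3 groups of 4 libraries all received a vector that expresses green fluorescent protein (GFP) from the CAG promoter, which is active in many cell types. The control vector (pAAV.1-CAG-GFP) carried GFP only, the overexpression vector (pAAV-CAG-GFP-P2A-Ttr-WPRE.bgH) joined GFP to the transthyretin gene Ttr, and the knockdown vector added a hairpin against Ttr driven by the U6 promoter. The mice carried their own Ttr gene in every group. The control vector had another supplier than both Ttr vectors, so the vector's source cannot be told apart from its content in comparisons with control. Whether the 4 libraries of a group are from separate mice is not in the labels. The p-values therefore set group differences against the spread between these libraries, which may be technical and need not be the spread between mice.

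Upper-layer neurons connect cortical areas with each other and with the other hemisphere, while deep-layer neurons also project below the cortex. Cux1 and Cux2 are homeodomain transcription factors of layers 2 to 4, and Rorb is a nuclear receptor typical of layer 4, a layer that is thin in rodent prefrontal cortex. Fezf2 and Bcl11b (also called Ctip2) specify layer 5 neurons that project below the cortex, and Tbr1 and Foxp2 are transcription factors of layer 6. Bcl11b and Foxp2 are also made by projection neurons of the striatum, which lies close to the prefrontal cortex. Slc17a7 loads glutamate into synaptic vesicles, and Nptx1 is a secreted pentraxin that gathers AMPA receptors at synapses.

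The results below turn on Cux2, Bcl11b and Tbr1, so their promoters are shown as landmarks of the genes measured, 250 bases before to 50 bases after the RefSeq start site on GRCm38.p6, 5′ to 3′ on the strand of the gene. Capitals mark matches to the letters AGGTGTGA (T-box), CAGATG (E-box), TGACGTCA (CRE), GCGTGGGCG (EGR), TATAAA or CCAAT on either strand. The windows are chr5:122049802-122050101 (minus strand) for Cux2, chr12:108003365-108003664 (minus strand) for Bcl11b and chr2:61804203-61804502 (plus strand) for Tbr1.
Cux2: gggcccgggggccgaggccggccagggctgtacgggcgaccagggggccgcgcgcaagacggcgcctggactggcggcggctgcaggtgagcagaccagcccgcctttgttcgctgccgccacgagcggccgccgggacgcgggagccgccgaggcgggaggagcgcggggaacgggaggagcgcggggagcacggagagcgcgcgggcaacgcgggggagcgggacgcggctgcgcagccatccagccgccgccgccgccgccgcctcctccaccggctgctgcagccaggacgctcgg
Bcl11b: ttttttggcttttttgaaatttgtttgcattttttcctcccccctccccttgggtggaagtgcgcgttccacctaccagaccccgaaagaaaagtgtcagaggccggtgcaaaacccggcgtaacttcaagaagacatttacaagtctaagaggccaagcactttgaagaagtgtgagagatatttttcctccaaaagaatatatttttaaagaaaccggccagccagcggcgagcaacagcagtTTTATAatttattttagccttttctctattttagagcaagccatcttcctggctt
Tbr1: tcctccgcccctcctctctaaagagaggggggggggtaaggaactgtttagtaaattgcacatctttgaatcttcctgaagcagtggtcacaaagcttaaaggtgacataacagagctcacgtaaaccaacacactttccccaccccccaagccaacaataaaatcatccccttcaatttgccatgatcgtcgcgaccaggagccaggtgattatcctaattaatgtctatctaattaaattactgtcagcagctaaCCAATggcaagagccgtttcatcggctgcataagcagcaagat
The Cux2 window was 80.3% G or C with 48 CG pairs, against 43.0% with 9 in Bcl11b and 46.0% with 7 in Tbr1. The median of all 32851 promoters in the RefSeq table was 52.7% with 7 CG pairs. TATAAA lay on the opposite strand of the Bcl11b window, from position -5 relative to the start site (13.6% of all promoters hold those letters). CCAAT lay on the gene's strand of the Tbr1 window, from position 8, which is after the start site (37.4%). The 2 matches in these windows did not overlap each other, and this Cux2 window held none of the 6 motifs. RefSeq gives Cux2 another start site, whose window (chr5:122047776-122048075, minus strand, not printed) was 56.7% G or C with 4 CG pairs and held CAGATG on the opposite strand (17.2% of all promoters) and TATAAA on the gene's strand. The table held promoters of 7 of the 9 genes, which leaves Nptx1 and Foxp2.

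The tissue label fitted the marker levels. In deposited TPM, a unit scaled for gene length, Slc17a7 had 1250 to 1530 TPM over the 12 libraries. Gad1, which makes the transmitter GABA in interneurons, had 167 to 358 TPM. Depth was 19879629 to 37166146 counts per library. Ttr, the vector target, had 94.2 to 639 CPM (library-size-scaled counts, with TMM factors) with overexpression and 0.491 to 8.50 CPM in controls. It had 0.146 to 1.86 CPM with knockdown, a range that overlaps the controls, so the counts do not check the knockdown. Markers of striatal projection neurons (10 genes, summed) had 302 to 1160 CPM in controls, 267 to 1480 with overexpression and 253 to 1300 with knockdown. The highest library of each group was control replicate 4, overexpression replicate 4 and knockdown replicate 3. No marker of that list was at 0 in any library, and Drd2, the dopamine receptor of indirect-pathway neurons, had at least 36 counts. In bulk tissue, fewer cells of a type and less RNA per cell cannot be told apart.

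Levels of the 9 markers were far apart. Mean TPM over the 12 libraries was 1380 for Slc17a7, 236 for Nptx1, 100 for Tbr1 and 51.1 for Fezf2. These 4 genes kept that order in every library, since their ranges of 1250 to 1530, 174 to 308, 75.4 to 125 and 27.8 to 66.1 TPM do not overlap. Below them stood Bcl11b at 26.0 TPM (16.6 to 36.8) and Cux2 at 23.5 TPM (16.5 to 32.9), neighbours that did not differ beyond their spread. The range of Bcl11b also overlapped that of Fezf2. Cux1 had 12.2 TPM (10.3 to 14.3), Foxp2 8.55 TPM (3.42 to 12.5) and Rorb 6.66 TPM (4.56 to 8.6), and each of these overlapped the next. Slc17a7 lay at the 99.8th percentile of the tested genes and Rorb at the 35.0th. The spread between libraries did not follow the level. The highest CPM was 1.29 times the lowest for Slc17a7 and 1.31 times for Cux1, but 3.55 times for Foxp2 and 2.42 times for Fezf2.

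**Figure D1:**
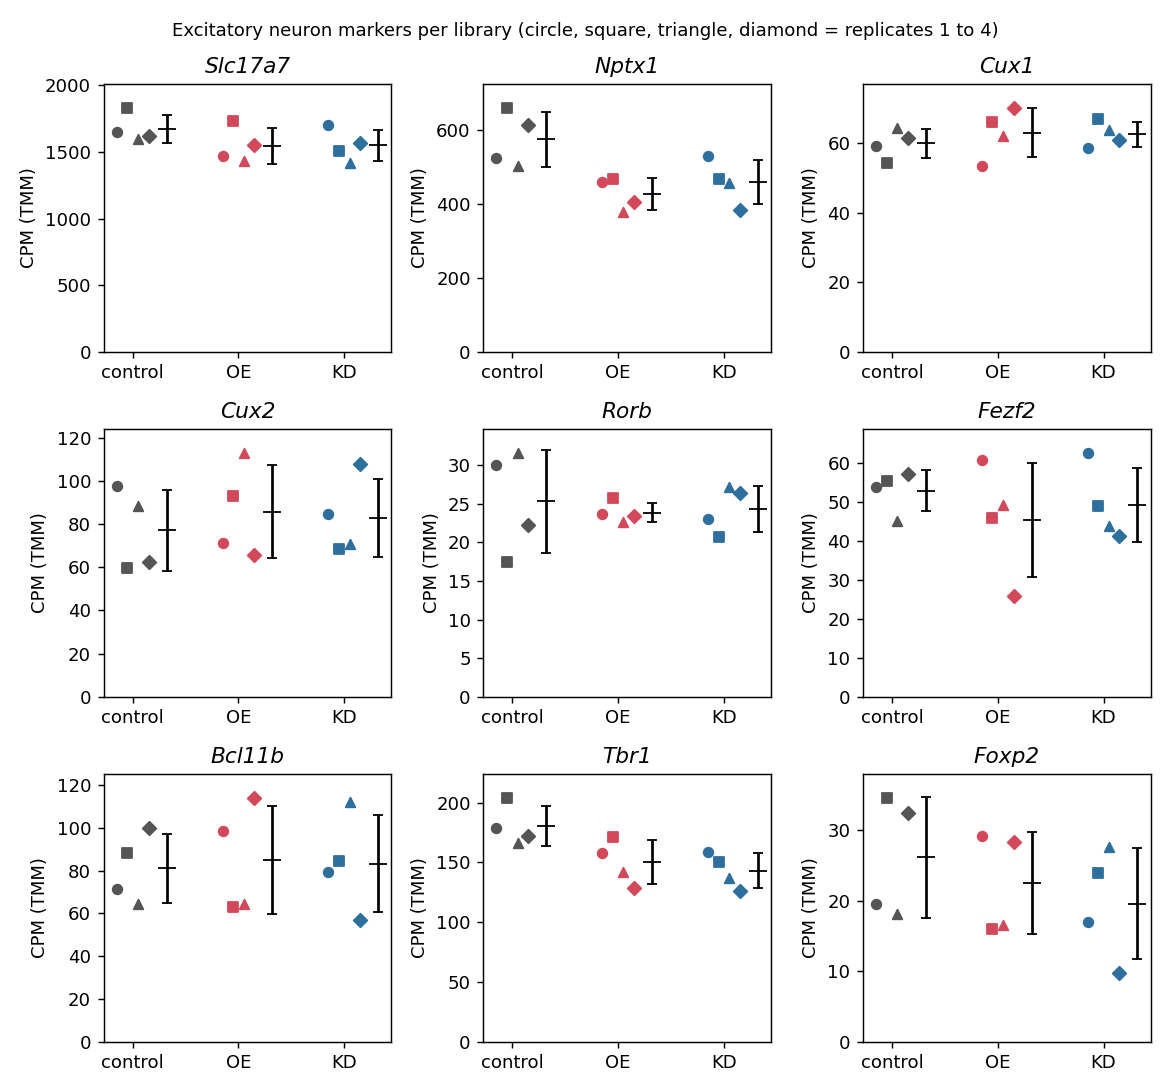
CPM (library-size-scaled counts with TMM factors, linear axes from 0) of the 9 markers in each library, by group (control, OE for Ttr overexpression, KD for Ttr knockdown), with the mean and SD of 4 libraries beside the points. The Nptx1 points with overexpression (379 to 467) sit below all control points (502 to 660), while the Cux2, Bcl11b and Foxp2 points are widely spread within every group.

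The question of the first comparison is whether these neurons' markers differed after Ttr overexpression. Nptx1 and Tbr1 had the lowest p-values of the 9 genes and lower means than control, and the upper-layer genes Cux1 and Cux2 had slightly higher means. Across all 18289 genes, 0 of the 9 passed the edgeR quasi-likelihood test at an adjusted p of 0.05, and the smallest of their adjusted p-values was 0.567. DESeq2 and limma-voom also called 0 of the 9. The test called 0.00547% of all genes, which is a single gene (Ttr). At an unadjusted edgeR p below 0.05 there were 2 of the 9 markers, against 6.26% of all genes. Both had lower means, as did 1.68% of all genes at that p. In all, 6 of the 9 had a lower mean, against 48.6% of all genes. The 9 were chosen with earlier results of these data known, so these shares are no test of the set.

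Nptx1 had 526, 660, 502 and 613 CPM in control replicates 1 to 4 and 461, 467, 379 and 405 CPM in overexpression replicates 1 to 4. Every overexpression library lay below every control, a pattern in that direction that 0.837% of all genes showed. The means were 575 ± 74.3 CPM (SD, n = 4) and 428 ± 43.0 CPM, a difference of -0.43 ± 0.11 on the log2 scale (SE), with an edgeR p of 0.0019 and an adjusted p of 0.567. DESeq2 gave Nptx1 an adjusted p of 0.0645 here, the smallest of any alternative and also above the threshold. The overexpression mean was 0.74 times that of control.

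Tbr1 had 179, 204, 166 and 172 CPM in the controls and 158, 171, 142 and 129 CPM with overexpression. Only overexpression replicate 2 reached into the range of the controls. The means were 180 ± 16.8 and 150 ± 18.3 CPM (SD, n = 4), a log2 difference of -0.27 ± 0.10 (SE) with an edgeR p of 0.016 and an adjusted p of 0.718. Slc17a7, the vesicular transporter, had 1680 ± 106 CPM in controls and 1550 ± 135 with overexpression (-0.12 ± 0.08 on the log2 scale, edgeR adjusted p = 0.855). Its ranges of 1600 to 1830 and 1430 to 1730 CPM overlapped.

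The other 6 markers showed smaller or noisier differences. Cux1 had 60.0 ± 4.29 CPM in controls and 63.0 ± 7.10 with overexpression, and its log2 difference had a 95% interval of -0.10 to 0.24. Cux2 went from 77.1 ± 18.9 to 85.7 ± 21.6 CPM (interval -0.29 to 0.59). For Rorb the interval ran from -0.42 to 0.24 and for Bcl11b from -0.42 to 0.55. These intervals leave room for changes of either sign. Fezf2 had 52.9 ± 5.33 CPM in controls and 45.4 ± 14.5 with overexpression (interval -0.65 to 0.22). Overexpression replicate 4, at 25.8 CPM, was far below the 45.8 to 60.8 CPM of the other overexpression libraries, and without it the log2 difference went from -0.21 to -0.04. Foxp2 had 26.2 ± 8.58 and 22.5 ± 7.27 CPM (interval -0.89 to 0.46), the widest interval of the 9.

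Markers of vessel wall and meninges, taken as a sum, were highest in the overexpression libraries, where Nptx1 was lowest on average. The summed level of that list (10 genes, all measured) was 165 to 220 CPM in controls, 232 to 331 with overexpression and 190 to 217 with knockdown. This list, like those of the other cell types below, was chosen with earlier results of these data known, so its counts are no test. In overexpression 10 of 10 had higher means and 8 had an unadjusted edgeR p below 0.05, against 6.26% of all genes at that p and 48.6% with a lower mean. Of these genes edgeR called 0, limma-voom 0 and DESeq2 5, among 39 genes that DESeq2 called in all. With knockdown 7 of 10 had higher means and 3 had an unadjusted edgeR p below 0.05, against 5.68% of all genes at that p. None was at 0 in any library, and Tagln, a smooth muscle protein, had 3.26 ± 0.335 CPM in controls and 9.32 ± 4.24 with overexpression. Igfbp2, which binds insulin-like growth factors, had 18.6 ± 3.49 and 32.6 ± 6.08 CPM. Not all of the list rose this much. Rgs5, its most abundant gene, had 109 ± 7.7 CPM in controls and 117 ± 14 with overexpression. The log2 differences of Rgs5 were 0.11 with overexpression and -0.01 with knockdown, and those of Pdgfrb were 0.14 and 0.09. With that list's score as a covariate, a fit chosen after seeing the data, the log2 differences of both Nptx1 and Tbr1 in overexpression were 0.02 in place of -0.43 and -0.27. The score and the group do not overlap in that comparison (0.22 to 0.98 against -0.76 to 0.02), so the fit cannot tell them apart.

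The second comparison asks the same of the hairpin against Ttr. Tbr1 and Nptx1 again had the smallest p-values of the 9 genes, with lower means than control. This comparison shares its control libraries with the first, so the likeness of both is not independent. Here too 0 of the 9 passed in edgeR, where the smallest adjusted p was 0.590, and 0 passed in DESeq2 and in limma-voom. The edgeR test called 0.00547% of all genes. At an unadjusted edgeR p below 0.05 there were 2 of the 9, against 5.68% of all genes. Both had lower means, as did 1.83% of all genes at that p. In all, 6 of the 9 had a lower mean, against 48.2% of all genes. As above, the 9 were chosen with earlier results known, so these shares are no test of the set.

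Tbr1 had 159, 150, 137 and 126 CPM in knockdown replicates 1 to 4. Each of these lay below the lowest control of 166 CPM, a pattern in that direction that 1.33% of all genes showed. The mean was 143 ± 14.3 CPM (SD, n = 4) against 180 ± 16.8, which is 0.79 times as much (-0.33 ± 0.10 on the log2 scale, SE). The edgeR p was 0.0042 and the adjusted p 0.590. Nptx1 had 531, 468, 456 and 383 CPM with knockdown. Of these, replicate 1 lay inside the range of the controls and the other 3 below it. The log2 difference was -0.32 ± 0.11 (SE) with an edgeR p of 0.0115 and an adjusted p of 0.759. With the vessel wall and meningeal score as covariate it was -0.17, and that of Tbr1 was -0.24.

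In knockdown the other markers overlapped the controls as well. Slc17a7 had 1550 ± 115 CPM, a log2 difference of -0.11 ± 0.08 (SE, edgeR adjusted p = 0.912). The upper-layer genes had intervals of -0.11 to 0.24 for Cux1, -0.34 to 0.54 for Cux2 and -0.39 to 0.27 for Rorb. In the deep layers the intervals were -0.54 to 0.33 for Fezf2, -0.44 to 0.53 for Bcl11b and -1.08 to 0.28 for Foxp2. Foxp2 had 17.0, 24.0, 27.6 and 9.75 CPM with knockdown. Replicate 4 was thus the lowest of all 12 libraries, and without it the log2 difference went from -0.40 to -0.18.

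**Figure D2:**
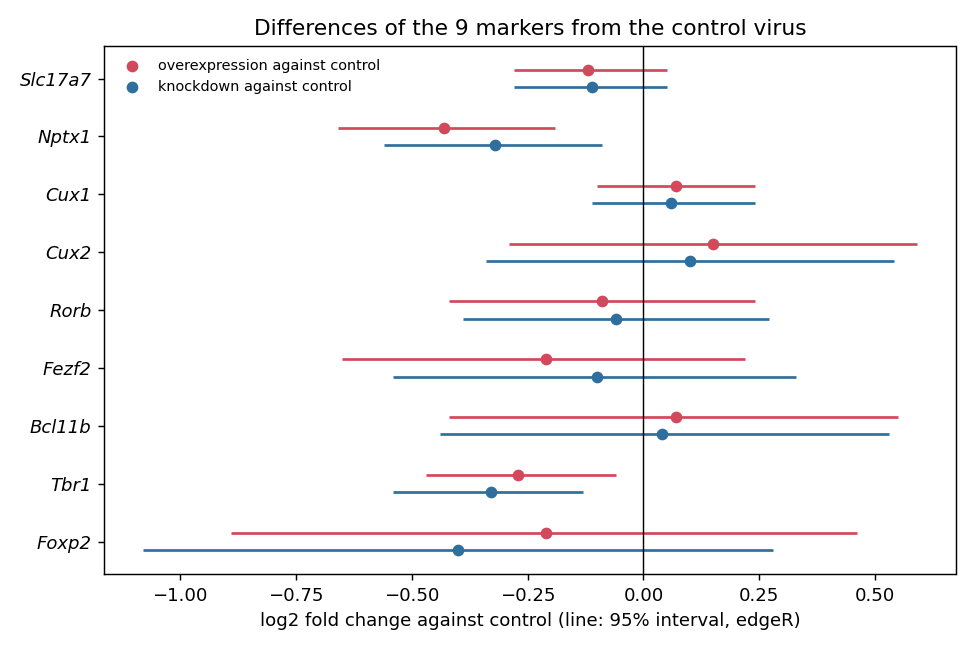
Log2 fold change of the 9 markers with overexpression and with knockdown, each against the same 4 control libraries (points, edgeR), with 95% intervals (lines). The intervals of Nptx1 and Tbr1 lie below 0 in both comparisons, before adjustment for the number of genes tested, and those of the other 7 genes cross 0.

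Between the Ttr vectors the 9 markers were closer. Log2 differences of overexpression against knockdown ran from -0.11 for Fezf2 to 0.18 for Foxp2, and 0 of the 9 had an unadjusted edgeR p below 0.05, against 5.1% of all genes. The edgeR test called 0.00547% of all genes. The smallest adjusted p was 0.989 in edgeR, and DESeq2 and limma-voom called 0 of the 9. For Tbr1 the difference was 0.07 with an interval of -0.14 to 0.28, and for Nptx1 it was -0.10 with an interval of -0.34 to 0.13. The narrowest intervals were those of Slc17a7 (-0.17 to 0.16) and Cux1 (-0.17 to 0.18).

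Upper and deep layers were then compared within each library, as the mean log2 CPM of Cux1, Cux2 and Rorb minus that of Fezf2, Bcl11b, Tbr1 and Foxp2. Since both sets come from the same library, its depth cancels. The value was -0.114, -0.999, 0.053 and -0.768 in control replicates 1 to 4. It was -0.69, 0.03, 0.05 and -0.27 with overexpression and -0.32, -0.44, -0.40 and 0.43 with knockdown. The 3 groups overlapped throughout. Controls split into a pair near 0 (replicates 1 and 3) and a pair far below it (replicates 2 and 4). The group means were -0.46 ± 0.51 (SD, n = 4), -0.22 ± 0.35 and -0.18 ± 0.41, so the differences from control of 0.24 and 0.27 were smaller than the SDs within the groups. Single libraries carried much of them. Without control replicate 2 the differences were 0.06 and 0.09, and without knockdown replicate 4 the second was 0.07.

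The median log2 difference of the upper-layer genes was 0.07 with overexpression and 0.06 with knockdown, and that of the deep-layer genes was -0.21 and -0.22. Over all genes tested the medians were 0.004 and 0.005. Ratios of single genes varied as much. The CPM of Cux2 divided by that of Fezf2 was 1.08 to 1.96 in controls, 1.17 to 2.54 with overexpression and 1.35 to 2.61 with knockdown. Divided by Tbr1 it was 0.29 to 0.55, 0.45 to 0.79 and 0.46 to 0.85 in the same order. Both ratios overlapped between all groups. Without Bcl11b and Foxp2, the deep-layer genes also made in striatum, the differences of upper minus deep were 0.33 and 0.28, again with overlap.

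**Figure D3:**
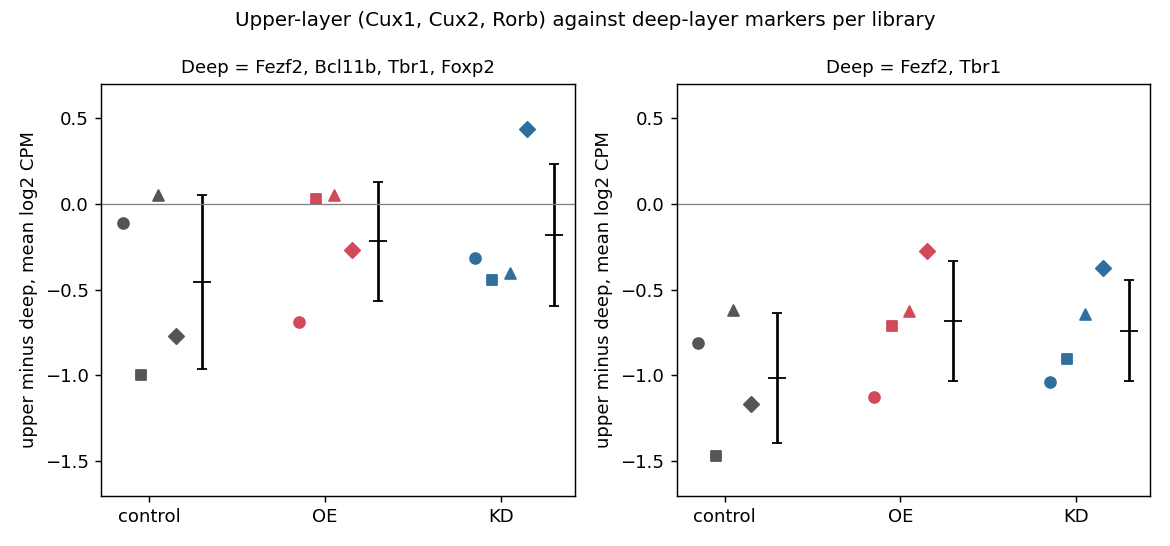
Mean log2 CPM of the upper-layer genes minus that of the deep-layer genes in each library, by group, with the mean and SD of 4 libraries. The left panel uses all 4 deep-layer genes and the right panel only Fezf2 and Tbr1. The groups overlap in both panels, and knockdown replicate 4 (0.43 on the left) stands above the other knockdown libraries.

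The deep-layer genes did not vary as a unit between libraries of the same group. Correlations were taken over the 12 libraries on log2 CPM after removing each group's mean, with exact permutations within the groups (two-sided, 13824 arrangements). All p-values were adjusted over 63 relations, 36 between the markers and 27 with marker scores of other cell types. Bcl11b and Foxp2 went together (Pearson r = 0.94, permutation p = 0.00094, adjusted p = 0.030, Spearman rho = 0.84, permutation p = 0.0051, adjusted p = 0.053). Without the 2 libraries farthest from the median of Bcl11b r was 0.94. Fezf2 and Tbr1, the other deep-layer genes, had r = 0.70 with each other (permutation p = 0.032, adjusted p = 0.15). Their rho was 0.62 (permutation p = 0.058, adjusted p = 0.28), and r was 0.61 without the 2 farthest libraries. Across these pairs r lay between -0.14 and 0.20, with Fezf2 at -0.14 to Bcl11b and 0.04 to Foxp2.

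Cux2 ran against the first of these pairs. Its r was -0.93 with Foxp2 (permutation p = 0.0022, adjusted p = 0.046) and -0.89 with Bcl11b (permutation p = 0.0046, adjusted p = 0.046). The rho values were -0.73 (permutation p = 0.012, adjusted p = 0.096) and -0.83 (permutation p = 0.0043, adjusted p = 0.053). Without the 2 libraries farthest from the median of Cux2 the r values were -0.93 and -0.83. By contrast Cux2 had r = 0.09 with Fezf2 and -0.19 with Tbr1. The other homeodomain gene did not share this pattern, as Cux1 had r = 0.02 with Cux2, -0.09 with Foxp2 and 0.00 with Bcl11b. With the other deep-layer genes Cux1 had r = -0.73 for Fezf2 (permutation p = 0.045, adjusted p = 0.20) and -0.47 for Tbr1 (permutation p = 0.20, adjusted p = 0.42). Without the 2 libraries farthest from the median of Cux1 these were -0.41 and -0.30. Rorb had r = 0.59 with Cux2 (permutation p = 0.094, adjusted p = 0.26), -0.54 with Foxp2 and -0.35 with Bcl11b.

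The values by library show this opposition in each group. Cux2 had 97.7, 59.6, 88.5 and 62.6 CPM in control replicates 1 to 4, where Foxp2 had 19.5, 34.6, 18.1 and 32.5 CPM. In overexpression replicates 1 to 4 the values were 71.4, 92.9, 113 and 65.7 CPM for Cux2 and 29.2, 16.0, 16.5 and 28.4 CPM for Foxp2. Each library high for Cux2 was low for Foxp2 in both groups. With knockdown, Cux2 had 84.7, 68.7, 70.6 and 108 CPM. Its highest library, replicate 4, had the lowest Foxp2. Bcl11b, with 71.3, 88.4, 64.6 and 100 CPM in controls, followed Foxp2. It had 98.3, 63.2, 64.4 and 114 CPM with overexpression and 79.4, 84.6, 112 and 56.9 CPM with knockdown.

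Striatal markers varied along with these genes. The striatal score of a library is the mean centred log2 CPM of its 10 markers. It had r = 0.95 with Bcl11b (permutation p = 0.0008, adjusted p = 0.030, rho = 0.96, permutation p = 0.001, adjusted p = 0.053). With Foxp2 r was 0.86 (permutation p = 0.0051, adjusted p = 0.046, rho = 0.84, permutation p = 0.0047, adjusted p = 0.053). Cux2 had r = -0.81 (permutation p = 0.0099, adjusted p = 0.069, rho = -0.75, permutation p = 0.018, adjusted p = 0.13). Without the 2 libraries farthest from the median of the score these r values were 0.91, 0.84 and -0.78. Fezf2 and Tbr1 had r of -0.19 and -0.24 with the score. Without the same 2 libraries these turned sign, to 0.47 and 0.08. Drd1, the dopamine receptor of direct-pathway neurons, had 10.7 to 64.6 CPM over the libraries, highest in overexpression replicate 4 and lowest in knockdown replicate 4. Foxp2 also varied along with the score of 15 other layer 6 and subplate genes, a list described below. In replicates 1 to 4 that score was 0.02, 0.46, -0.26 and 0.27 in controls and 0.25, -0.31, -0.22 and 0.21 with overexpression. With knockdown it was -0.06, 0.14, 0.03 and -0.51. Its correlation with Foxp2 was not tested.

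Myelin genes had the same signs of r as striatal markers with Foxp2, Bcl11b, Cux2 and Rorb, and 0 of these 4 relations passed the adjustment. The score of 5 oligodendrocyte genes had r = 0.81 with Foxp2 (permutation p = 0.0084, adjusted p = 0.066, rho = 0.81, permutation p = 0.0064, adjusted p = 0.057) and -0.81 with Rorb (permutation p = 0.029, adjusted p = 0.15, rho = -0.71, permutation p = 0.087, adjusted p = 0.31). Without the 2 farthest libraries these were 0.66 and -0.80. With Cux2 r was -0.73 (permutation p = 0.024, adjusted p = 0.14, rho = -0.62, permutation p = 0.045, adjusted p = 0.23) and with Bcl11b 0.67 (permutation p = 0.02, adjusted p = 0.13, rho = 0.64, permutation p = 0.022, adjusted p = 0.14). Without the 2 farthest libraries these were -0.61 and 0.48. The summed level of that list was 3060 to 7430 CPM in controls, 3040 to 4410 with overexpression and 1800 to 4340 with knockdown. Knockdown replicate 4 was the lowest library for both oligodendrocyte and striatal markers, and control replicate 2 the highest for the former. The part of these other cells in the levels of Bcl11b, Foxp2 and Cux2 was not tested beyond the alternatives given here. With the striatal score as covariate the log2 differences of Foxp2 were -0.33 with overexpression and -0.46 with knockdown, and those of Bcl11b were -0.04 and 0.00, still with 0 of the 9 genes passing.

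Tbr1 and Nptx1 formed another pair. They had r = 0.81 (permutation p = 0.0044, adjusted p = 0.046, rho = 0.84, permutation p = 0.0035, adjusted p = 0.053), and 0.76 without the 2 libraries farthest from the median of Tbr1. Slc17a7 had r = 0.61 with Tbr1 (permutation p = 0.076, adjusted p = 0.25) and 0.54 with Nptx1 (permutation p = 0.10, adjusted p = 0.26). The vessel wall and meningeal score had r = -0.81 with Nptx1 within the groups (permutation p = 0.0032, adjusted p = 0.046, rho = -0.81, permutation p = 0.0051, adjusted p = 0.053). Without the 2 farthest libraries it was -0.76. With Tbr1 it had r = -0.59 (permutation p = 0.077, adjusted p = 0.25). With the striatal score Nptx1 had r = 0.30 (permutation p = 0.38) and Tbr1 -0.24 (permutation p = 0.52). Without the 2 libraries farthest from the median of that score these were 0.49 and 0.08. Without the library of each group highest in striatal counts, the log2 differences from control were -0.38 and -0.29 for Nptx1 and -0.23 and -0.34 for Tbr1.

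**Figure D4:**
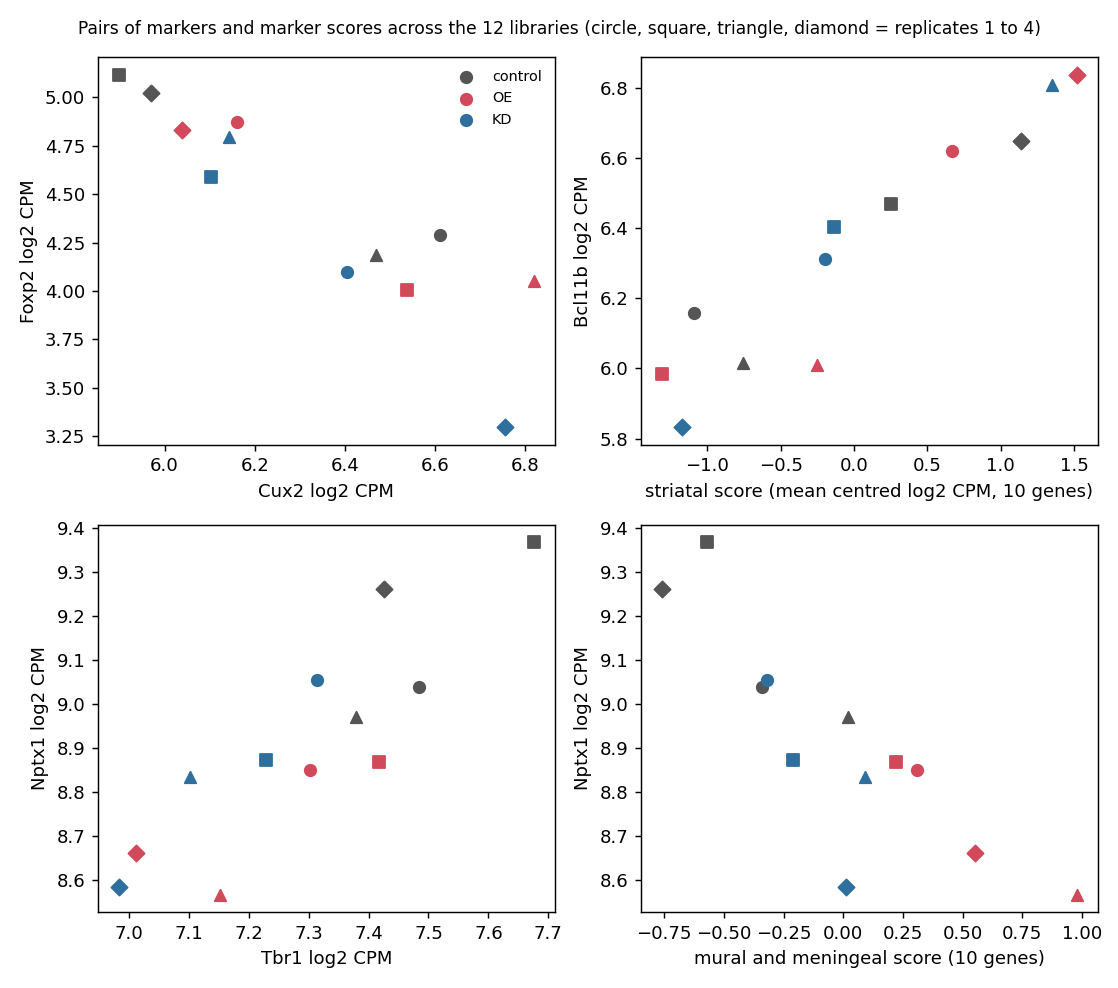
Log2 CPM or marker scores of the 12 libraries, coloured by group (grey control, red OE for overexpression, blue KD for knockdown), with group means kept. Libraries with high Cux2 have low Foxp2, and those with a high striatal score have high Bcl11b. Libraries with high Nptx1 have high Tbr1 and a low vessel wall and meningeal score.

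**Figure D5:**
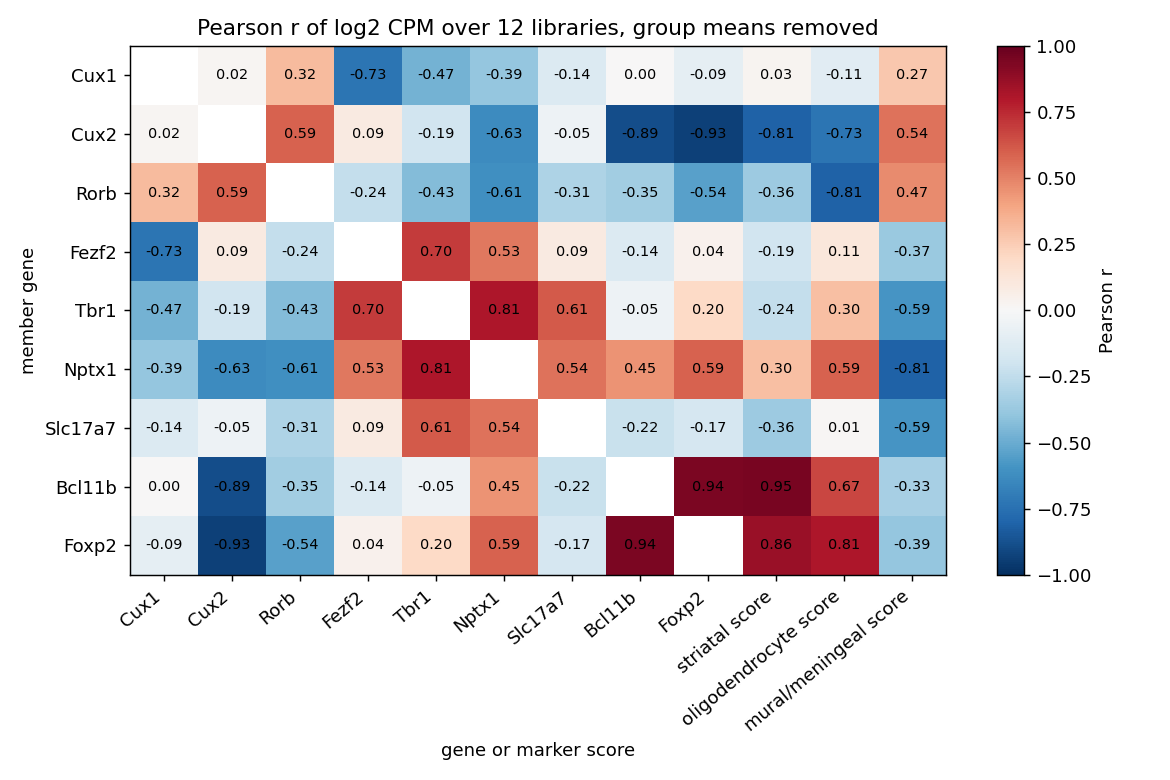
Pearson r over 12 libraries of log2 CPM with group means removed, for each pair of the 9 markers and for 3 scores of other cell types (colour from -1 to 1, values printed). Bcl11b and Foxp2 share a block with the striatal score (0.86 to 0.95), against which Cux2 stands at -0.81 to -0.93, apart from Fezf2 and Tbr1 (0.70).

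Genes whose pattern over the libraries was most like each marker were sought among 15889 genes with a mean of at least 1 CPM, by the same r and as a description. All points share their libraries, dissections and depth. For Bcl11b they were Nrsn2, Rem2 and Drd1 (all 0.98), the last a striatal marker. Those of Foxp2 were Hs6st2 (0.97), Cpsf3 (0.97) and Pnrc1 (0.96), and those of Cux2 were Gm37412 (0.97), Camk2n1 (0.96) and Pam (0.95). Tbr1 was nearest to Elp3 (0.97), Garnl3 (0.93) and Etl4 (0.93), and genes near Nptx1 were Plk3 (0.95) and Clip3 (0.95). For Fezf2 they were Rps15a (0.95), 1110032F04Rik (0.95) and Lonrf1 (0.93). Rorb had Greb1l (0.95), Klhl23 (0.92) and Arntl2 (0.91), Cux1 had Sav1 (0.92), Armc7 (0.92) and Rflnb (0.91), and Slc17a7 had Mfsd12 (0.94), Tuba4a (0.93) and Nmt1 (0.93). No marker was among the 3 nearest genes of another marker.

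Wider layer lists, chosen with earlier results of these data known, placed the markers among their neighbours. Of 15 measured genes of layer 6 and subplate, 0 passed in either comparison with control in edgeR, DESeq2 or limma-voom. At an unadjusted edgeR p below 0.05 there were 4 with overexpression, 2 of them with a lower mean, and 3 with knockdown, all with a lower mean. Over all genes 6.26% and 5.68% had such a p. In all, 10 had lower means with overexpression and 12 with knockdown, against 48.6% and 48.2% of all genes. The median log2 differences were -0.23 and -0.15, against 0.004 and 0.005 over all genes. Rprm, a marker of layer 6 neurons that project to thalamus, had 80.5, 127, 57.0 and 113 CPM in controls. It had 75.2, 47.4, 44.1 and 62.9 CPM with overexpression and 69.8, 65.8, 48.9 and 39.4 with knockdown. Control replicates 1, 2 and 4 stood above every library of both Ttr vectors, and control replicate 3 within them. Oligodendrocyte markers were high and low in some of the same libraries as the layer 6 list. The layer 6 score (mean centred log2 CPM) was highest in control replicate 2 (0.46), next in control replicate 4 (0.27) and lowest in knockdown replicate 4 (-0.51), where the oligodendrocyte score was 0.98, 0.52 and -0.95. Other libraries went apart. The layer 6 score was 0.25 in overexpression replicate 1 and -0.22 in overexpression replicate 3, where the oligodendrocyte score was -0.11 and 0.21. The part of oligodendrocytes in the layer 6 values was not tested. For Rprm the log2 differences were -0.72 ± 0.25 (SE, edgeR adjusted p = 0.683) and -0.75 ± 0.25 (adjusted p = 0.748). Cplx3, a subplate gene, had 23.1 ± 9.26 CPM in controls and 13.9 ± 3.47 with knockdown (-0.71 ± 0.25, edgeR adjusted p = 0.808). Osr1, a transcription factor with 27 to 107 counts per library, went the other way with overexpression (0.68 ± 0.21, edgeR adjusted p = 0.626).

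Layer 5 and upper-layer lists were closer to the median of all genes. Over all genes 6.26% with overexpression and 5.68% with knockdown had an unadjusted edgeR p below 0.05, and 48.6% and 48.2% had a lower mean. Of 14 measured layer 5 genes 0 passed in edgeR, DESeq2 or limma-voom, and 1 in each comparison had an unadjusted edgeR p below 0.05, with 9 of higher mean in overexpression and 8 in knockdown, and medians of 0.08 and 0.02. Tshz2, a marker of near-projecting layer 5 neurons, had 32.9, 30.6, 32 and 30.8 CPM in controls and 37.6, 36.4, 43.0 and 36.1 with overexpression. These groups did not overlap, in a direction that 1.88% of all genes showed. The log2 difference was 0.28 ± 0.07 (SE, edgeR adjusted p = 0.527), and 0.18 with knockdown (adjusted p = 0.843). Slc17a8 (0.27 with overexpression, edgeR adjusted p = 0.867) and Tcerg1l (0.20 with knockdown, 0.907) were next by p. Of 18 further upper-layer genes 0 passed in these tools, and 0 and 1 had an unadjusted edgeR p below 0.05, with 11 of higher mean in overexpression and 13 in knockdown, and medians of 0.04 and 0.11. Wfs1, a membrane protein of the endoplasmic reticulum, had 82.6 ± 15.3 CPM in controls, 104 ± 12.3 with overexpression and 109 ± 23.9 with knockdown (edgeR adjusted p = 0.807 and 0.843). Plxnd1, a semaphorin receptor, had a log2 difference of 0.27 with overexpression (edgeR adjusted p = 0.844).

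Other genes of excitatory neurons had differences of both signs, from -0.29 to 0.17 with overexpression and from -0.21 to 0.26 with knockdown on the log2 scale. Of 16 further genes of excitatory neurons at large 0 passed in these tools and 0 had an unadjusted edgeR p below 0.05. In both comparisons 9 had a higher and 7 a lower mean, with medians of 0.02 and 0.01. Over all genes 6.26% and 5.68% had an unadjusted edgeR p below 0.05, and 48.6% and 48.2% had a lower mean. Nrgn, a calmodulin-binding protein, had 1310 ± 45.6 CPM in controls and 1070 ± 286 with overexpression (-0.29 ± 0.15, edgeR adjusted p = 0.819), and Neurod2, a transcription factor, had a log2 difference of -0.13. With knockdown the lowest p-values were those of Emx2 (0.18) and Neurod1 (0.26), with edgeR adjusted p = 0.912 and 0.920. Partners of Nptx1 had differences nearer to 0. Nptx2, the activity-induced pentraxin, had log2 differences of -0.11 with overexpression and -0.04 with knockdown, and Nptxr, the membrane-bound pentraxin, had 0.02 and 0.22. The AMPA receptor subunits that pentraxins gather had -0.04 and 0.08 for Gria1, 0.05 and 0.02 for Gria2, 0.00 and -0.02 for Gria3 and 0.05 and 0.03 for Gria4. The edgeR adjusted p-values of these 6 genes were 0.900 or more.

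Other cell types the dissection could hold gave 0 genes passing in either comparison with control in edgeR. At an unadjusted edgeR p below 0.05 there were 2 astrocyte genes (1 with a higher and 1 with a lower mean) and 1 microglia gene with knockdown. There were 0 of the interneuron, striatal and oligodendrocyte genes in both comparisons. Over all genes 6.26% with overexpression and 5.68% with knockdown had such a p, and 48.6% and 48.2% had a lower mean. Of 6 interneuron markers 5 had higher means with overexpression, led by Gad2 (0.33), and 5 with knockdown, led by Gad1 (0.27). Sst had log2 differences of -0.17 with overexpression and 0.00 with knockdown, and Pvalb had 0.02 and -0.22. The summed level of the 6 interneuron markers was 766 to 839 CPM in controls, 752 to 1030 with overexpression and 723 to 1060 with knockdown. Striatal markers had medians of 0.32 and 0.19, led by Tac1 (0.68 and 0.28) and Rarb (0.42 and 0.24). All 5 oligodendrocyte markers had lower means in both comparisons, with medians of -0.29 and -0.47 (Mbp -0.41 and -0.51, Mag -0.36 and -0.59). Of 5 astrocyte markers, Aqp4 had 0.26 with overexpression, Aldh1l1 0.15 and 0.25, and Gfap -0.56 with knockdown. All 5 microglia markers had higher means in both comparisons, with medians of 0.19 and 0.20 (P2ry12 0.19 and 0.20, Tmem119 0.40 with knockdown). Each of these groups overlapped the controls in summed level.

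In the genome (GRCm38, GENCODE M21), Nptx1 (ENSMUSG00000025582) lies on chromosome 11 at 119538719 to 119547753 on the minus strand and Tbr1 (ENSMUSG00000035033) on chromosome 2 at 61802930 to 61814114 on the plus strand. Cux2 (ENSMUSG00000042589) is on chromosome 5 at 121856366 to 122050102, Bcl11b (ENSMUSG00000048251) on chromosome 12 at 107910403 to 108003602 and Foxp2 (ENSMUSG00000029563) on chromosome 6 at 14901349 to 15441977. Of these 5, Nptx1, Tbr1 and Bcl11b overlap no other annotated gene. Cux1, Cux2, Foxp2 and Slc17a7 overlap antisense, microRNA or other noncoding genes, 0 of which passed the expression filter. Values of those 4 genes may hold reads from such partners, since the strand setting of the counting is not given in the sources used here.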

How the data were processed

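Each library started from 500 ng of RNA, selected for poly(A) with a directional kit whose adaptors hold unique molecular identifiers, per the labels' protocols. The submitters' processing notes list DESeq2, featureCounts, UMI-tools, bcl2fastq 2.20.0.422 and the build GRCm38 (mm10), without saying what each did. Aligner, annotation release and strand setting: not given in the sources used here. The authors deposited whole-number counts per gene, TPM and variance-stabilised log2 values (floor 7.10). The deposited TPM equalled counts over 1 length per gene, scaled (100% of values of 18120 genes within 0.01 on the log2 scale). Of 55401 identifiers, 55141 were matched to symbols.

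Counts were tested with edgeR 4.0.16 in R 4.3.3 (quasi-likelihood test, TMM factors, default filter by group, 12 libraries, 3 group means, Benjamini-Hochberg over 18289 genes, two-sided, threshold 0.05). Log2 CPM used a prior count of 2. Alternatives used DESeq2 1.42.0, limma 3.58.1 (voom, log2(TPM + 0.1), variance-stabilised values), other scaling and filtering, a replicate block, fits of the compared groups and left-out libraries. The 95% intervals use the fit's degrees of freedom. No replicate pair agreed within sampling noise (chi-square per degree of freedom 5.00 to 26.1 over 18 pairs). The members and lists were chosen with earlier results of these data known. Named genes are the 9 markers, Ttr, up to 2 genes per list by p in each comparison with control, the pentraxin and AMPA receptor genes, and the 3 genes nearest to each marker by r. A few genes this rule names are not reported here. Other genes named (Gad1 for its level, Drd1, Drd2, Pvalb, Pdgfrb, Rgs5) were chosen after their values were seen. Figures used Python 3.11.15 and matplotlib 3.10.9.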

Additional observations from a re-analysis of the deposited data

Results flagged for a closer look

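Upper minus deep mean log2 CPM was 0.434 in knockdown replicate 4, far from the -0.444 to -0.317 of the other 3 knockdown libraries (gap of 0.856 of the group's range). Of the 30 groups of 4 values examined in this way this was the single one, where chance flags about 1 in 20. That library also had the lowest Foxp2 (9.75 CPM) and Bcl11b (56.9 CPM), the lowest oligodendrocyte marker sum (1800 CPM) and the lowest striatal marker sum (253 CPM).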

How the results depend on the processing

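No marker passed the adjusted threshold in any of 621 fits (27 marker comparisons under 23 alternatives), and the smallest adjusted p was 0.0645 (Nptx1 with overexpression, DESeq2). Of the alternatives, 3 were chosen after seeing the data: without the 3 libraries richest in striatal counts, and with the striatal or the vessel wall and meningeal score as covariate. The cause of the changes below was not tested.

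Of all genes, 1 was called in each comparison. For overexpression against control the count was 20 without a filter, 39 in DESeq2, and 0 in limma-voom, with the compared groups only, without the striatal-rich libraries and with the vessel wall score. It was 0 to 4 with single libraries left out. For knockdown against control it was 22 without a filter, 43 in DESeq2, 2 with the compared groups only, 4 with the striatal score, and 0 with the replicate block, on TPM, without the striatal-rich libraries and with the vessel wall score. It was 0 to 10 with single libraries left out. Between the Ttr vectors it was 2 with the replicate block, 4 in DESeq2, and 0 in limma-voom and without the striatal-rich libraries, and 0 to 2 with single libraries left out.

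With the vessel wall score the log2 differences with overexpression turned sign to -0.03 for Cux1, -0.41 for Cux2, 0.19 for Fezf2, 0.02 for Tbr1, 0.47 for Foxp2, 0.08 for Slc17a7 and 0.02 for Nptx1. With knockdown they were -0.07 for Cux2 and 0.02 for Fezf2. Between the Ttr vectors they were -0.06 for Cux1, -0.34 for Cux2, 0.16 for Fezf2, 0.13 for Slc17a7 and 0.20 for Nptx1. With the striatal score Bcl11b had -0.04 with overexpression, 0.00 with knockdown and -0.04 between the vectors, where Slc17a7 had 0.00. Without the striatal-rich libraries Fezf2 had 0.01 with overexpression and Bcl11b -0.03 with knockdown, and between the vectors Cux1 had -0.04, Rorb 0.03 and Fezf2 0.02. On TPM Rorb had 0.00 with overexpression, and Rorb 0.02 and Slc17a7 0.04 between the vectors. Without a filter Slc17a7 had 0.01 there.

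With single libraries left out, signs turned for Bcl11b (-0.12 to 0.19 with overexpression, -0.14 to 0.19 with knockdown, -0.15 to 0.20 between the vectors), Cux2 (-0.02 to 0.28, -0.05 to 0.24, -0.11 to 0.20) and Rorb (-0.23 to 0.04, -0.20 to 0.07, -0.10 to 0.03). Between the vectors they also turned for Cux1 (-0.05 to 0.08), Fezf2 (-0.28 to 0.08), Foxp2 (-0.03 to 0.40), Slc17a7 (-0.06 to 0.04) and Tbr1 (0.00 to 0.13). Nptx1 stayed at -0.49 to -0.35 with overexpression and Tbr1 at -0.39 to -0.27 with knockdown. Upper minus deep ranged from 0.06 to 0.41, from 0.07 to 0.44 and from -0.13 to 0.17.

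Same-numbered libraries did not deviate together (r = -0.41 to 0.22). These values show no pairing by number but cannot exclude one, since other differences between libraries may hide it. With the replicate block Nptx1 had -0.43 with overexpression and Tbr1 -0.33 with knockdown, and Bcl11b turned to -0.01 between the vectors. With 4 libraries a group, the intervals of Foxp2, Bcl11b and Cux2 leave changes of a size like those within groups undetectable.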
